A study of Homo sapiens with 4 samples.

Results

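The 10 genes described here are switched on by p53 and were measured in 2 single-cell libraries of human pluripotent stem cell cultures. They are CDKN1A, GDF15, MDM2, PLK2, BBC3, BAX, TP53INP1, SESN1, ZMAT3 and TNFRSF10B. They were taken as a list of symbols, not by a cut on measured values, although earlier results of these data were known. All 10 were found once among the 60674 features of the count matrices. The question was whether they are on together in the same cells, and in which library.

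The ectoderm library came from cultures induced towards ectoderm, and the hPSC library from cultures labelled hPSC, the human pluripotent stem cells themselves. Cells of both groups had received 2 lentiviruses, had been sorted for fluorescence and had recovered for 1 week: one virus carried a guide RNA, EGFP under the EF1α promoter and a barcode of 22 nucleotides, the other Cas9 with mCherry. The protocol text is the same for both samples and mentions the induction in each, so the groups rest on the sample titles. Labels name the established line H9 throughout, and in a check of expression 2 of 2 libraries did not match it.

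After filtering, the ectoderm library held 16360 cells with 91249888 unique molecular identifiers (UMIs, each counting 1 captured RNA molecule) and a median of 4499 per cell, and the hPSC library 15326 cells with 83246015 UMIs and a median of 4807.5. The libraries shared 78 cell barcodes, 0.477% of ectoderm and 0.509% of hPSC cells. Neural ectoderm markers were higher in the ectoderm library for 9 of the 9 at 5 CPM or more (counts scaled to a common library total), with a median log2 ratio of 3.32, but PAX6 stood at only 1.19 CPM in ectoderm and 0.216 CPM in hPSC. Pluripotency markers summed to 3727 CPM in ectoderm and 3985 CPM in hPSC. Of these 10 markers, 3 were at least 2-fold lower and 2 at least 2-fold higher in ectoderm. NANOG gave 11.6 CPM in ectoderm, against 178 CPM in hPSC, while SOX2 gave 516 CPM in ectoderm, against 236 CPM in hPSC, and SALL4 424 CPM in ectoderm, against 184 CPM in hPSC. Mesoderm and endoderm markers summed to 6.48 CPM in ectoderm and 31.3 CPM in hPSC, where KDR gave 29.7 CPM, and neuron and blood markers to 3.22 CPM in ectoderm and 5.44 CPM in hPSC. SOX17 and HBB had no UMI in either. With 1 library per group no test between groups was possible, and every interval below covers counting error only.

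The p53 protein is a transcription factor that is kept low by the ubiquitin ligase MDM2 and is stabilised by DNA damage and other stress. It then raises genes that halt the cell cycle, genes that promote apoptosis, and MDM2 itself, which closes a negative feedback loop. Human pluripotent stem cells are known for a strong p53 response to DNA breaks, including those made by Cas9.

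RefSeq promoters on GRCh38.p14, each 250 bases before to 50 bases after a transcript start, were found for 8 of the 10 genes, leaving TP53INP1 and TNFRSF10B without one. The p53 half-site, the named consensus to which a pair of p53 subunits binds, was searched on both strands with no other motif. A copy was present in 2 of the 14 windows of these 8 genes, 1 each for PLK2 and SESN1, against 6.63% of all 35116 promoters. The bases before the start are shown for these 2 genes and for CDKN1A and GDF15, which differed most between libraries among the genes at 20 CPM or more, written 5′ to 3′ on the gene's strand with the half-site in capitals.
PLK2 promoter, chr5:58460087-58460336, minus strand: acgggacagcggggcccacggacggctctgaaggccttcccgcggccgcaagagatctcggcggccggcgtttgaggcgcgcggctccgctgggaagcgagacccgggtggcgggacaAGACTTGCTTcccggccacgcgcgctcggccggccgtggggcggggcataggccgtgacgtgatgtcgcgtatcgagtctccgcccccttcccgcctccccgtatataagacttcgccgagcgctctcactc
SESN1 promoter, chr6:109008989-109009238, minus strand: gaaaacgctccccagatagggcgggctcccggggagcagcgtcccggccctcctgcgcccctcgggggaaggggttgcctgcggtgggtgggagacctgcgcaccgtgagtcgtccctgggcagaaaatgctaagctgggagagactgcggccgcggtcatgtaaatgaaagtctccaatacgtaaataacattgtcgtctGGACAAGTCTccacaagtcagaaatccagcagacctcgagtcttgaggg
CDKN1A promoter, chr6:36678464-36678713, plus strand: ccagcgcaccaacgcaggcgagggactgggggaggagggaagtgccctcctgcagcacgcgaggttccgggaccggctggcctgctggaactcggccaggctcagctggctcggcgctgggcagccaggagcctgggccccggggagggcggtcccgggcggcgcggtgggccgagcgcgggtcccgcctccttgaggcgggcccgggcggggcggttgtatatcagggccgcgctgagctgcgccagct
GDF15 promoter, chr19:18385908-18386157, plus strand: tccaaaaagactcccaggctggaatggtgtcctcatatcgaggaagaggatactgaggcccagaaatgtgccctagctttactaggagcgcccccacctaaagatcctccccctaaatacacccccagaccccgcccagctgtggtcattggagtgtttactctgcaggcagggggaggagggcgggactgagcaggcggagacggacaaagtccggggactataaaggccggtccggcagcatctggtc
The half-site began at position -132 from the PLK2 start and at position -49 from the SESN1 start, 1 of the 3 SESN1 starts listed. The windows shown for CDKN1A and GDF15 hold no copy, and p53 sites are also known to lie farther upstream or in introns, which were not searched.

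Summed over the 10 genes, the level was 479 CPM in ectoderm (43723 UMIs) and 930.1 CPM in hPSC (77423 UMIs). Of the 9 genes that reached 20 CPM in 1 library or both, 3 were at least 2-fold lower in ectoderm (CDKN1A, GDF15 and ZMAT3), where 4.03% of all 6249 genes at that level were at least 2-fold lower. None of these 9 was at least 2-fold higher, against 3.25% of all genes. The log2 ratio of ectoderm over hPSC was below 0 for 9 of the 10 genes, beside 53.7% of all genes at 20 CPM or more. Its median over the 10, which all reached 5 CPM in 1 library or both, was -0.85. Over all 10769 genes at 5 CPM or more the median was -0.015. BAX alone gave 49.9% of the UMIs of these genes in ectoderm and 46.3% in hPSC, so sums weigh BAX heavily, and levels are not corrected for gene length and are compared only between libraries.

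**Figure D1:**
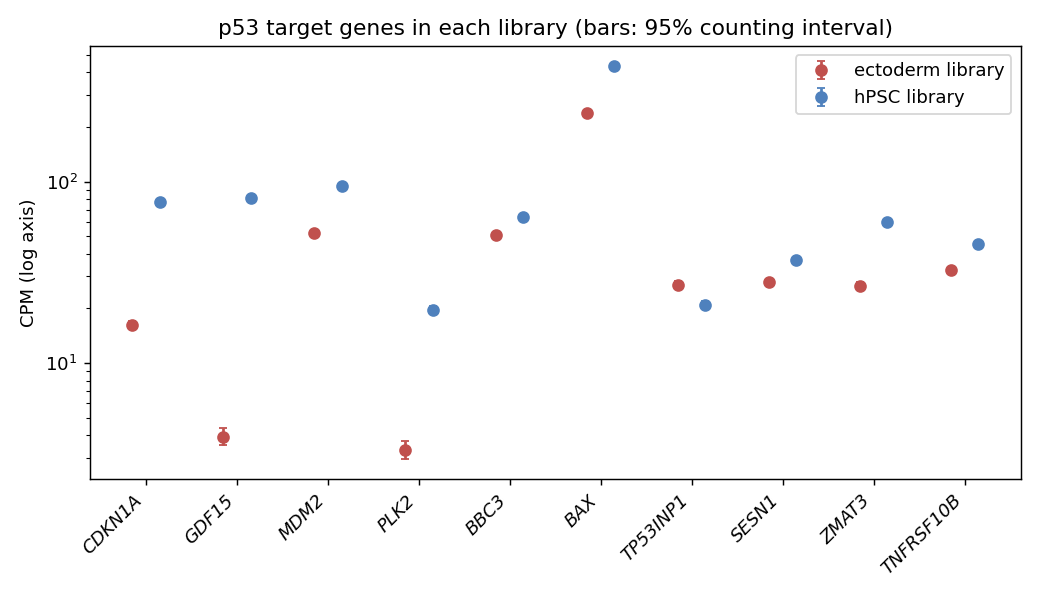
Level of each p53 target gene as CPM on a log axis, from UMIs summed over all kept cells of the ectoderm library (red, left) and the hPSC library (blue, right), with 95% counting intervals. GDF15 is farthest apart, with 3.92 CPM in ectoderm against 81.5 CPM in hPSC, and only TP53INP1 is higher in ectoderm.

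The feedback gene MDM2, on chromosome 12 from 68808176 to 68850686 in the GENCODE annotation of GRCh38, had 52.0 CPM in ectoderm (4744 UMIs) and 94.2 CPM in hPSC (7838 UMIs). Its log2 ratio was -0.86 (95% interval -0.91 to -0.80), short of 2-fold. It was detected, with at least 1 UMI, in 23.5% of ectoderm and 34.5% of hPSC cells.

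Among the cell cycle genes, CDKN1A encodes p21, an inhibitor of cyclin-dependent kinases, and lies on chromosome 6 from 36676460 to 36687339. It gave 16.2 CPM in ectoderm (1476 UMIs) and 77.3 CPM in hPSC (6433 UMIs), a log2 ratio of -2.26 (-2.34 to -2.17). It was detected in 7.35% of ectoderm and 25.0% of hPSC cells. PLK2, a polo-like kinase, gave 3.31 CPM in ectoderm and 19.6 CPM in hPSC, and its log2 ratio of -2.57 (-2.75 to -2.39) was not counted above because it was under 20 CPM in both libraries. It was found in 1.72% of ectoderm and 9.36% of hPSC cells.

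The apoptosis genes of the list differed less than CDKN1A and PLK2. BAX, the pore-forming BCL2 family member that opens the mitochondrial outer membrane, gave 239 CPM in ectoderm (21798 UMIs) and 431 CPM in hPSC (35868 UMIs), with a log2 ratio of -0.85 (-0.88 to -0.83). It was detected in 63.5% of ectoderm and 82.4% of hPSC cells. BBC3, which encodes the BH3-only protein PUMA, gave 50.5 CPM in ectoderm and 63.4 CPM in hPSC, a log2 ratio of -0.33 (-0.39 to -0.27). TNFRSF10B, the death receptor DR5 for TRAIL, gave 32.7 CPM in ectoderm and 45.3 CPM in hPSC, a log2 ratio of -0.47 (-0.54 to -0.40). TP53INP1, a nuclear protein linked to apoptosis and autophagy, was the 1 gene with a higher level in ectoderm, at 27.0 CPM against 20.9 CPM in hPSC, a log2 ratio of 0.37 (0.29 to 0.46). TP53INP1 lies within the span of NDUFAF6 on the opposite strand, which had 12.3 CPM in ectoderm and 12.8 CPM in hPSC, and without a stated strand setting reads of the 2 cannot be told apart.

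GDF15, a secreted TGF-beta family cytokine of cell stress on chromosome 19 from 18374731 to 18389176, differed most. It gave 3.92 CPM in ectoderm (358 UMIs) and 81.5 CPM in hPSC (6787 UMIs), 20.8-fold lower in ectoderm with a log2 ratio of -4.38 (-4.53 to -4.22). The highest count in any 1 cell was 5 UMIs in ectoderm and 34 UMIs in hPSC, and 1.95% of ectoderm and 19.1% of hPSC cells had at least 1. ZMAT3, an RNA-binding zinc finger protein, gave 26.7 CPM in ectoderm and 60.1 CPM in hPSC, a log2 ratio of -1.17 (-1.24 to -1.10). SESN1, a sestrin that restrains mTORC1, gave 28.0 CPM in ectoderm and 36.9 CPM in hPSC, a log2 ratio of -0.40 (-0.47 to -0.32). Fewer cells with a gene on and less of its RNA per cell cannot be told apart in these sums. Cells were next compared at equal depth, where the share detected also rises with the level and so does not separate the 2 either.

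Each cell was thinned to 2000 UMIs, which kept all 16360 ectoderm cells and left out 131 hPSC cells. At that depth CDKN1A was detected in 2.86% of ectoderm and 12.3% of hPSC cells, GDF15 in 0.728% of ectoderm and 10.1% of hPSC cells, and BAX in 35.9% of ectoderm and 55.3% of hPSC cells. Neither library holds a cell type known to lack these genes, so the share that free RNA alone would give was not measured. GDF15 was the most unevenly spread of the 10 in hPSC: its variance over its mean was 2.35, which ranked 10 among 5762 genes, whereas counting error alone gives a value near 1 and the median gene had 1.01. CDKN1A followed at 1.31, ranked 57, and the other 7 genes at 20 CPM or more in hPSC lay between 1.03 and 1.13. In ectoderm the 7 genes at 20 CPM or more lay between 1.02 and 1.11. Of the genes under 20 CPM there, CDKN1A had 1.16, the highest of the 10, GDF15 1.09 and PLK2 1.05.

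Cells with several of these genes were more frequent than independent detection would give. In ectoderm 139.8 cells had 4 or more of the 10 genes, as the mean of 20 thinning draws (range 125 to 155), against 48.0 expected, a ratio of 2.91 (2.45 to 3.44). In hPSC 775 cells had 4 or more (range 737 to 811), against 391 expected, a ratio of 1.98 (1.84 to 2.13). Such cells were 0.855% of ectoderm and 5.10% of hPSC cells. Cells with none of the 10 were also more frequent than expected, at 42.6% against 40.3% in ectoderm and 22.6% against 18.5% in hPSC. The 2 ratios have different expected numbers, since detection is lower in ectoderm, and their difference was not tested. Without the 5% of cells with the most UMIs, where doublets would be richest, the ratios were 2.90 in ectoderm and 2.03 in hPSC. The ratio moved with the number of genes asked for and with BAX: for 3 or more genes it was 1.44 in ectoderm and 1.20 in hPSC, and without BAX, a setting chosen after seeing the data, 4.86 in ectoderm and 3.36 in hPSC for 4 or more of the other 9.

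**Figure D2:**
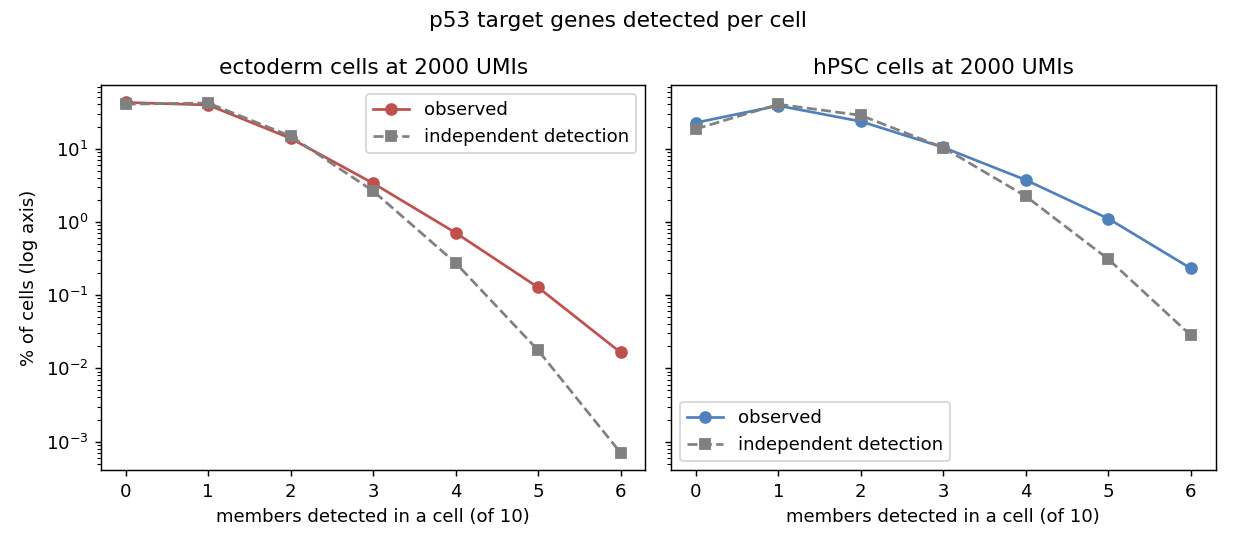
Percent of cells, on a log axis, with 0 to 6 of the 10 p53 target genes detected at 2000 UMIs, in ectoderm (left panel) and hPSC (right panel). Solid lines are observed values and dashed grey lines those expected from independent detection, and the observed lines lie above at 0 and from 3 genes on in both panels. At 3 genes the observed share was 3.36% against 2.64% expected in ectoderm and 10.4% against 10.3% expected in hPSC.

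Pair by pair, all 45 pairs in ectoderm and all 45 in hPSC were found together in more cells than expected. Among all gene pairs at 20 CPM or more, 52.3% in ectoderm and 52.6% in hPSC were above their expected number. The counting interval lay wholly above the expected number for 26 of the 45 pairs in ectoderm and 32 of the 45 in hPSC. Of the pairs with both genes at 20 CPM or more it did so for 13 of 21 in ectoderm and 27 of 36 in hPSC, where 0.0824% of all such gene pairs in ectoderm and 0.0681% in hPSC did. That interval narrows as the levels of both genes rise, and pairs were not matched on level. CDKN1A and GDF15 were found together in 16.4 ectoderm cells against 3.40 expected, a ratio of 4.82 (2.78 to 7.78), and in 422 hPSC cells against 188 expected, a ratio of 2.24 (2.03 to 2.46). MDM2 with BAX stood at 1.03 (0.95 to 1.12) in ectoderm and BBC3 with BAX at 1.03 (0.97 to 1.09) in hPSC, the lowest of each library.

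Correlation over cells was described with Pearson's r between counts expressed as deviations from those expected at each cell's depth. It was above 0 for 21 of the 21 pairs of the 7 genes at 20 CPM or more in ectoderm and for 36 of the 36 pairs of the 9 in hPSC, where 52.5% of all such gene pairs in ectoderm and 52.4% in hPSC were above 0. The median r was 0.052 in ectoderm (16360 cells) and 0.069 in hPSC (15326 cells), against 0.0006 over all gene pairs in each library and a 95th percentile of 0.018. As Spearman's rho of thinned counts the median was lower, at 0.021 in ectoderm and 0.034 in hPSC. Over the 7 genes at 20 CPM or more in both libraries, a setting chosen after seeing the data, the median r in hPSC was 0.063. At r of 0.05 or more stood 11 of 21 pairs in ectoderm, against 0.27% of all pairs, and 27 of 36 pairs in hPSC, against 0.214% of all pairs. All cells compared share 1 library and its preparation, counts are sparse, and values this low describe these libraries only.

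The hPSC library had 2 pairs well above the rest, CDKN1A with GDF15 at 0.246 and CDKN1A with MDM2 at 0.244. GDF15 with MDM2 followed at 0.176, and then CDKN1A with ZMAT3 at 0.142, with BBC3 at 0.140 and with SESN1 at 0.137. CDKN1A had the highest median r to the other 8 genes, 0.138, and TP53INP1 the lowest, 0.022. In ectoderm, where CDKN1A, GDF15 and PLK2 are under 20 CPM, the highest r among the 7 was 0.091 for BAX with ZMAT3, and the lowest 0.020 for TP53INP1 with TNFRSF10B. Outside that limit, CDKN1A with GDF15 reached 0.136 and CDKN1A with BBC3 0.114 in ectoderm.

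**Figure D3:**
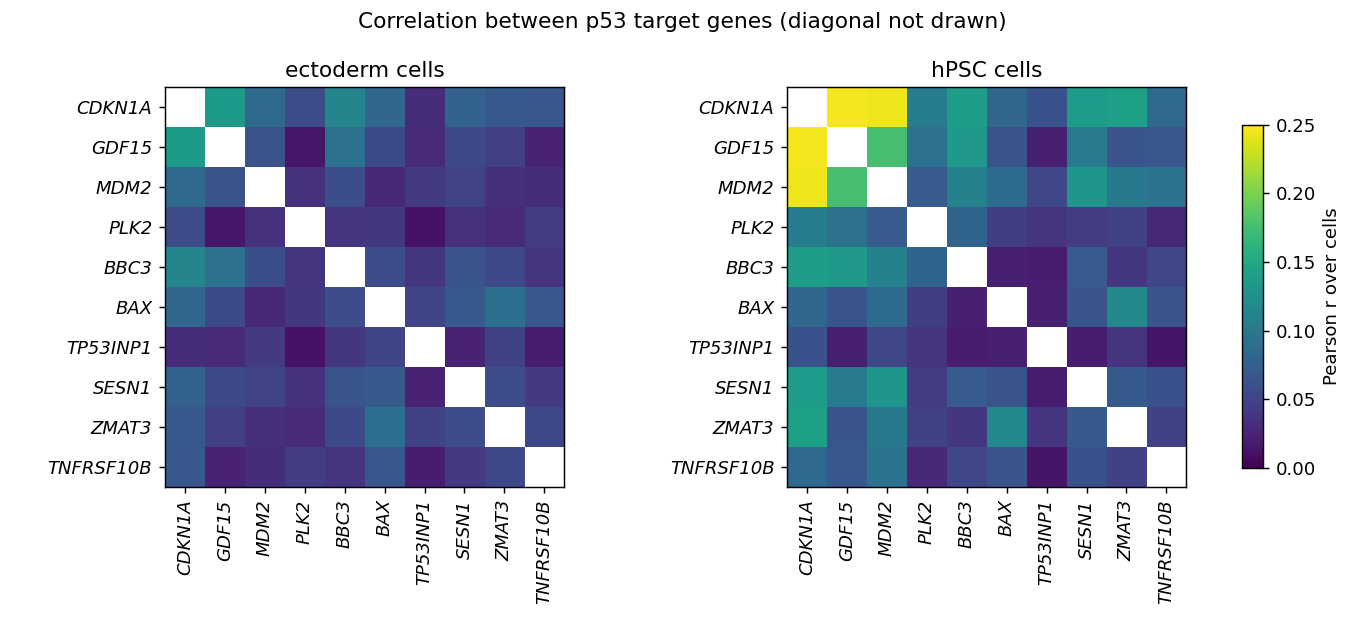
Pearson r over cells for each pair of the 10 genes in ectoderm (left) and hPSC (right), on 1 colour scale from 0 to 0.25, counts being taken relative to each cell's depth. The block of CDKN1A, GDF15 and MDM2 in the hPSC panel is brightest, with r of 0.246, 0.244 and 0.176, and TP53INP1 is darkest there.

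Splitting cells by their CDKN1A UMIs shows the sizes behind these correlations, as a restatement of them rather than separate evidence. In ectoderm the other 9 genes summed to 447 CPM in cells with 0 CDKN1A UMIs, 728 CPM (673 to 787) with 1 and 974 CPM (731 to 1273) with 2, a class of 27.45 cells on average over draws. In hPSC they summed to 785 CPM (774 to 795) with 0, 1160.2 CPM (1122 to 1199) with 1, 1393 CPM (1298 to 1494) with 2 and 1557 CPM (1357 to 1778) with 3 or more, the last in 69.8 cells on average. Each step up in CDKN1A in hPSC thus went with a higher sum, although the intervals of the upper 2 classes overlap.

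GDF15 moved most over these hPSC classes, with 62.4, 171, 269.5 and 329.5 CPM at 0, 1, 2 and 3 or more CDKN1A UMIs. MDM2 gave 81.7, 150.3 and 212 CPM at 0, 1 and 2, and 245 CPM at 3 or more. BAX moved little in proportion, with 417 CPM at 0 and 548 CPM (432 to 686) at 3 or more. In ectoderm GDF15 gave 3.44 CPM at 0 and 19.6 CPM (11.4 to 31.4) at 1 CDKN1A UMI, a level resting on about 17 UMIs.

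**Figure D4:**
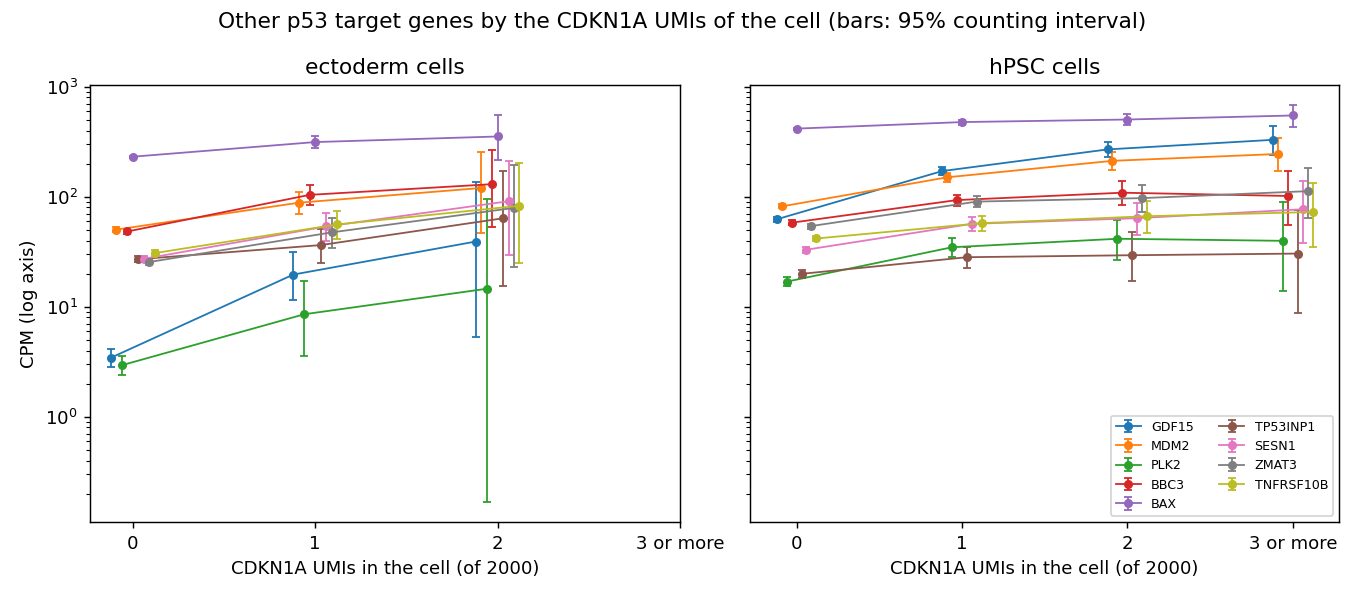
CPM of the other 9 genes, on a log axis with 95% counting intervals, in cells grouped by their CDKN1A UMIs at a depth of 2000, for ectoderm (left) and hPSC (right). Ectoderm had too few cells with 3 or more to plot, and in hPSC GDF15 has the steepest line, from 62.4 CPM at 0 to 329.5 CPM at 3 or more.

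The cell cycle moved with these genes, and its part in the results was not tested. In hPSC, over terciles of the cells from the lowest to the highest share of UMIs from 53 G2 and M phase genes, CDKN1A gave 112, 89.6 and 40.1 CPM and GDF15 107, 104 and 42.1 CPM. MDM2 gave 114, 102 and 71.9 CPM over the same terciles, whereas BAX gave 401, 437 and 447 CPM. In ectoderm CDKN1A gave 19.1, 18.1 and 11.98 CPM and MDM2 52.0, 54.3 and 49.6 CPM. Within the lowest tercile of both libraries the median log2 ratio of the 10 genes was -1.02, and after a fit on cell cycle and mitochondrial shares the median r was 0.048 in ectoderm and 0.068 in hPSC.

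Over terciles by the share of S phase genes, sums over the 10 genes, in which BAX weighs heavily, rose. From lowest to highest they were 430.1, 478 and 532 CPM in ectoderm and 880.0, 924 and 985 CPM in hPSC. In hPSC r was above 0 with 11 of 28 S phase genes for BAX and 13 for ZMAT3. For the other genes of the list at 20 CPM or more there, it was so with 18 (TP53INP1) to 26 (CDKN1A). Depth moved with the sums as well: over terciles of cells by total UMIs they were 438, 499.6 and 482 CPM in ectoderm and 791, 999 and 945 CPM in hPSC. Over terciles by mitochondrial share they were 463, 486 and 492 CPM in ectoderm and 891, 934 and 966 CPM in hPSC.

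The genes outside the list whose counts followed these most closely were much the same for several of them. Taking the 3 highest correlates of each gene at 20 CPM or more, RPS27L, a p53 target related to a ribosomal protein, appeared for 5 of 7 genes in ectoderm and 3 of 9 in hPSC. Among all other genes at that level, RPS27L was in the top 3 for 0.793% in ectoderm (5676 genes) and 1.01% in hPSC (5656 genes). NEAT1, the long noncoding RNA of paraspeckles, appeared for 4 of 7 in ectoderm and 7 of 9 in hPSC, against 0.405% of other genes in ectoderm and 1.52% in hPSC. LINC00678 appeared for 4 of 7 in ectoderm, against 0.511% of other genes, and MIR205HG, the host transcript of a microRNA, for 6 of 9 in hPSC, against 0.636%. MALAT1 and SNHG14, both long noncoding RNAs, appeared for 2 of 7 each in ectoderm, MDM2 and TP53INP1, with r of 0.096 for MDM2 with MALAT1. They were also in the top 3 of 24.7% (MALAT1) and 13.0% (SNHG14) of other genes there.

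Single values show the range. GDF15 with NEAT1 had r of 0.296 in hPSC, above its r with any of the 10, and CDKN1A with MIR205HG had 0.252 and with BTG2, an antiproliferative p53 target, 0.195. BAX with RPS27L had 0.212 in ectoderm and 0.218 in hPSC, and ZMAT3 with RRM2B, a p53-induced ribonucleotide reductase subunit, 0.089 in ectoderm and 0.141 in hPSC. At the other end UBE2S, an E2 enzyme of the anaphase-promoting complex, was lowest for 5 of 9 genes in hPSC, against 0.778% of other genes, and PTTG1, which encodes securin, for 3 of 7 in ectoderm, against 2.06%. TMSB4X encodes the actin-binding thymosin beta 4 and was lowest for 1 of 7 in ectoderm (BAX) and 2 of 9 in hPSC (BAX and ZMAT3). Among other genes it was lowest for 0.458% in ectoderm and 2.32% in hPSC. Its r to BAX was -0.123 in ectoderm and -0.179 in hPSC. In ectoderm NACA was lowest for MDM2, but also for 6.87% of other genes, and TPM1 was lowest for TP53INP1, against 0.599%. In hPSC CDC20 was lowest for TP53INP1, against 0.194% of other genes. The lowest for BBC3 in ectoderm was UBE2S, against 0.405% of other genes there. CDKN1A was lowest with CKS2, at -0.155 in hPSC, where CKS2 was lowest for 0.796% of other genes.

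Of 24 other p53 targets, 21 reached 5 CPM in at least 1 library, with a median log2 ratio of -0.55 and 19 of 21 below 0. The median over all genes at 5 CPM or more was -0.015, and 53.7% of all genes at 20 CPM or more were below 0. At 20 CPM or more, 4 of 14 were at least 2-fold lower in ectoderm and 0 higher, beside 4.03% and 3.25% of all genes. These 4 were RRM2B, with 46.9 CPM in ectoderm against 136 CPM in hPSC, BTG2, with log2 -1.91, PHLDA3, with log2 -1.19, and PMAIP1, which encodes NOXA, with 190.1 CPM in ectoderm against 459 CPM in hPSC. RPS27L and CCNG1, by contrast, had log2 ratios of -0.01 each. SUSD6 stood at the upper end, with 10.4 CPM in ectoderm against 5.09 CPM in hPSC. In hPSC all 14 had r above 0 with CDKN1A, with a median of 0.098, where 52.4% of all gene pairs were above 0. Over all 5761 other genes at 20 CPM or more, the median r with CDKN1A was -0.0018 and the 95th percentile 0.027. CDKN1A had the highest median r to these targets in hPSC. For the other genes of the list at 20 CPM or more there, medians ran from 0.031 (TP53INP1, 13 of 14 above 0) to 0.085 (GDF15). In ectoderm, with 11 such targets, medians ran from 0.020 (TP53INP1) to 0.058 (BAX).

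Among regulators of the pathway, HIPK2, a kinase that phosphorylates p53, had 85.5 CPM in ectoderm against 52.2 CPM in hPSC, a log2 ratio of 0.71 (0.66 to 0.77). PPM1D, the WIP1 phosphatase, had 9.38 CPM in ectoderm against 11.9 CPM in hPSC, a log2 ratio of -0.34 (-0.48 to -0.21). Both differed by less than 2-fold.

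Groups that respond to other stress were mixed. Genes of the ATF4 and CHOP response, which also raises GDF15 in other settings, had a median log2 ratio of 0.20, with 149 CPM of DDIT4 in ectoderm against 53.3 CPM in hPSC, and 9.55 CPM of ATF3 in ectoderm against 22.5 CPM in hPSC. DDIT3, which encodes CHOP, gave 10.4 CPM in ectoderm and 4.35 CPM in hPSC. Immediate early genes had a median of -0.89, with 4 of 8 at 20 CPM at least 2-fold lower, beside 4.03% of all genes: IER3, JUN, MYC and FOS. IER3 gave 6.81 CPM in ectoderm and 59.1 CPM in hPSC, and EGR1 32.6 CPM in ectoderm and 17.0 CPM in hPSC. In the BCL2 family the median was -0.40, with 0 of 5 at least 2-fold lower or higher at 20 CPM, beside 4.03% and 3.25% of all genes. Below that level, HRK gave 11.5 CPM in ectoderm and 3.51 CPM in hPSC, and BOK 3.44 CPM in ectoderm and 7.58 CPM in hPSC.

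Guides gave a comparison within each library. None of the 80 target genes in ectoderm or the 113 in hPSC was among the 10, and the libraries shared 0 targets. A cell was assigned a guide at 20 or more UMIs in the guide amplicon library, which left 3527 ectoderm cells with 1 targeting guide and 159 with 1 non-targeting guide, and 2703 targeting and 212 non-targeting hPSC cells. The hPSC amplicon table may be part of a longer one, and 11791 ectoderm and 12142 hPSC cells had no guide at this limit.

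The 10 genes summed to 482 CPM in targeting and 513 CPM in non-targeting cells of ectoderm, a log2 ratio of -0.09 (-0.22 to 0.04). In hPSC they summed to 919.9 CPM in targeting and 844 CPM in non-targeting cells, a log2 ratio of 0.12 (0.03 to 0.22). With 40 UMIs required for a guide, the hPSC ratio was 0.09 and its interval reached 0. A limit of 0.32 on the log2 scale, in either direction at 50 CPM or more, was passed by 0 of 2 genes of the list in ectoderm, against 6.18% of all genes, and by 1 of 7 in hPSC, against 3.93%. The 1 gene was GDF15, at 85.2 CPM in targeting (1359 UMIs) and 60.8 CPM in non-targeting cells (76 UMIs), a log2 ratio of 0.49 (0.15 to 0.84). CDKN1A gave 80.2 CPM in targeting and 76.8 CPM in non-targeting hPSC. In ectoderm it gave 16.2 CPM in targeting and 10.8 CPM in non-targeting cells, the second from only 11 UMIs. Between non-targeting cells alone, CDKN1A was lower in ectoderm (10.8 CPM) than in hPSC (76.8 CPM), as was GDF15 with 1 UMI in ectoderm against 76 UMIs in hPSC.

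The sums did not increase steadily with the number of guides. With 0, 1, 2 and 3 or more guides the sums were 478, 484, 482 and 449 CPM in ectoderm and 937, 914, 849 and 927 CPM in hPSC, the last class of hPSC holding only 19 cells. Cells with 2 or more guides over cells with 1 had a log2 ratio of -0.03 (-0.09 to 0.02) in ectoderm and -0.10 (-0.17 to -0.02) in hPSC. Past that limit at 50 CPM were 0 of 2 genes in ectoderm, against 0.935% of all genes, and 1 of 6 in hPSC, against 1.51%, namely ZMAT3 at 46.1 CPM with 2 or more and 59.8 CPM with 1. Median depth rose with guide number, from 4197 UMIs at 0 guides to 11290.5 at 3 or more in ectoderm and from 4731 to 7356 in hPSC, and its part was not tested.

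**Figure D5:**
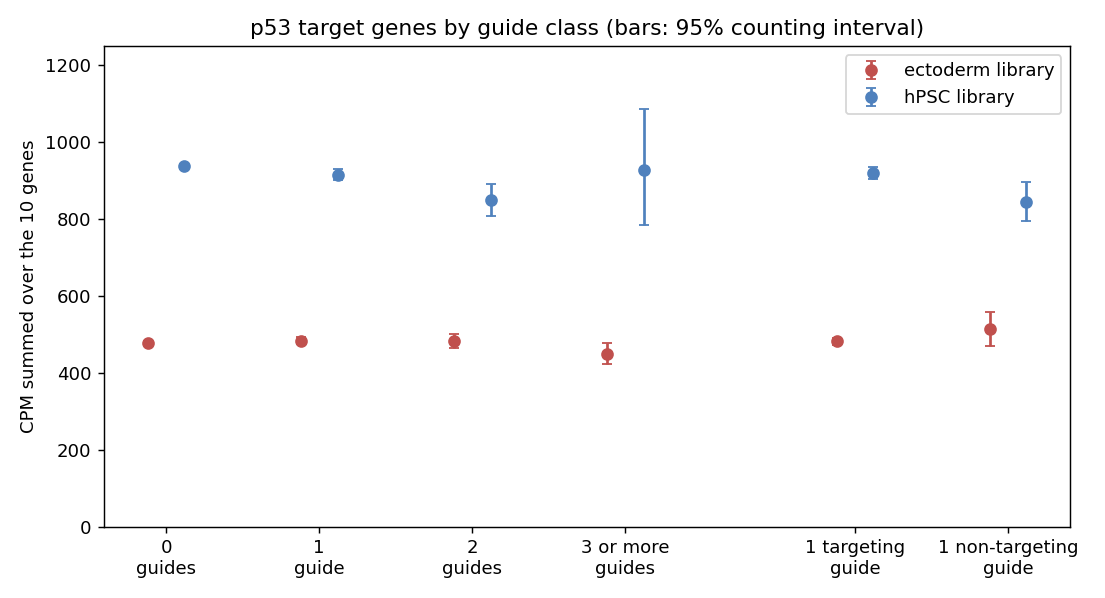
CPM summed over the 10 genes, with 95% counting intervals, by number of guides in the cell and, at the right, for cells with exactly 1 targeting or 1 non-targeting guide, in ectoderm (red) and hPSC (blue). Ectoderm lies between 449 and 513 CPM and hPSC between 844 and 937 CPM, so the classes within a library differ less than the libraries do.

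By target, with at least 50 cells, the sums ran from 407 CPM (LAMB1) to 545 CPM (THOC3) over 28 targets in ectoderm and from 838 CPM (CMBL) to 949 CPM (ZYX) over 8 in hPSC. Against non-targeting cells the interval lay wholly below 0 for 2 of the 28 and above 0 for none, and for none of the 8 in hPSC. TP53I11, a gene named for p53 induction and the 1 such target, gave 476 CPM in 73 ectoderm cells, a log2 ratio of -0.11 (-0.34 to 0.12) over non-targeting cells. Cells with a CAS9 UMI summed to 492 CPM against 479 CPM without in ectoderm, a log2 ratio of 0.04 (-0.04 to 0.11). In hPSC they summed to 968 CPM against 929 CPM without, a log2 ratio of 0.06 (0.006 to 0.11). Median depth was also higher with a CAS9 UMI, at 6418 against 4463 UMIs in ectoderm and 6007 against 4782 in hPSC, and its part was not tested.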

How the data were processed

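The 2 transcriptome matrices were deposited as raw UMI counts, unscaled, for every feature and barcode. STAR, STARsolo and GRCh38 are named in the submitters' processing notes. The strand setting, the versions and the annotation are not given in these notes. The amplicon tables, as deposited, have a read in each line with its cell and guide barcodes and the matched guide, and 12 bases of read 1 after base 16 were used as UMI; their mismatch columns are counts made by the authors. The hPSC table may be part of a longer one. The labels name version 2 chemistry, and read 1 is longer than that chemistry uses.

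Cells were kept at 1000 UMIs, 500 genes and at most 20% mitochondrial UMIs, which removed 0 of 16360 ectoderm and 7 of 15333 hPSC barcodes; no doublet caller was run. UMIs were summed and scaled to CPM. Calls needed 20 CPM in 1 library and a log2 ratio of 1 in size. Intervals are exact at 95% (Poisson, Clopper-Pearson or conditional binomial) and cover counting error only. Expected co-detection multiplies the detection shares at 2000 UMIs, and observed numbers are means over 20 thinning draws. Correlation used Poisson Pearson residuals. Lists used 5 CPM. Named genes are the 10, the 3 highest and 1 lowest correlates of each, leaving out mitochondrial and ribosomal protein genes, and up to 3 from each end of each list; others were chosen after their values were seen. Not every correlate and list result that this rule names is reported here. The genes, lists and tests were chosen with earlier results of these data known. Positions come from GENCODE v29 (GRCh38) and promoters from RefSeq on GRCh38.p14. The steps were tested on simulated data. NumPy 2.4.6, SciPy 1.17.1, pandas 2.3.3 and edgeR 4.0.16 (for TMM factors only) were used.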

Additional observations from a re-analysis of the deposited data

Results flagged for a closer look

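The summed level of the 10 genes in cells with 1 targeting over 1 non-targeting guide had opposite signs in the 2 libraries, with a log2 ratio of -0.089 in ectoderm and 0.124 in hPSC. The interval in ectoderm includes 0, but with a guide counted at 10 UMIs the ratio was -0.137 (-0.264 to -0.007). Without BAX, the gene with the most UMIs, it was -0.009 (-0.193 to 0.181) in ectoderm and 0.144 (0.022 to 0.269) in hPSC. Whether the libraries differ in this was not tested.

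Transgene RNA, outside the comparisons above, was counted in both libraries. EGFP of the guide construct gave 386240 UMIs in ectoderm and 358140 UMIs in hPSC. For mCherry of the Cas9 construct there were 33 UMIs in ectoderm and 30 UMIs in hPSC. Each is above the 3 counts that a count of 0 allows, a limit for counting error only. What free RNA or misassigned reads add to these counts was not measured.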

How the results depend on the processing

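No paired analysis was possible because each group has 1 library and the labels give no shared replicate numbers; for the same reason no library could be left out. Of 21 alternative settings, 8 can alter a log2 ratio. Under these no ratio of the 10 genes changed sign, 56 of 80 stayed within their counting interval, and the rest moved; the cause was not tested. The median log2 ratio was -0.77 with median-of-ratios size factors and -0.60 with non-targeting cells only. In the lowest tercile of G2 and M share, a setting chosen after seeing the data, it was -1.02. There 5 genes were 2-fold lower. For non-targeting cells, a range of -1.27 to 0.07 about the median reflects the counting error typical of a single gene. It is not an interval for the median of the 10 genes, which was not calculated. With non-targeting cells ZMAT3 stood at -0.68, short of 2-fold, and the intervals of BBC3, TP53INP1, SESN1 and TNFRSF10B included 0. Under median-of-ratios factors, which shift all log2 ratios by 0.084, all genes split into 204 lower and 260 higher, against 252 and 203 as reported. The median r was 0.021 in ectoderm and 0.034 in hPSC as Spearman's rho of thinned counts, and 0.088 in hPSC on logged counts. Observed over expected cells with several genes came to 1.44 in ectoderm and 1.20 in hPSC for 3 or more genes, to 2.09 in ectoderm and 1.55 in hPSC at 3000 UMIs, and, chosen after seeing the data, to 4.86 in ectoderm and 3.36 in hPSC without BAX. Depth limits most for GDF15 and PLK2 in ectoderm, with 358 and 302 UMIs in all.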
